A study of Mus musculus with 20 samples.

Results

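The keratins that build the cortex and cuticle of the hair shaft were followed in mouse abdominal skin. The 10 genes were listed by name (Krt31, Krt32, Krt33a, Krt33b, Krt34, Krt35, Krt81, Krt82, Krt85 and Krt86), and each was read from the single-symbol array feature with the highest mean over all arrays. A feature of that kind represented 9 of the 10 listed genes, of 22180 genes in all. Krt85 was not analysed here. Skin came from 20 C57/B6 mice aged 9 weeks, 1 array per mouse, in 4 groups of 5: HFD-IMQ (high fat diet, imiquimod cream), HFD-vehicle (high fat diet, vehicle), CD-IMQ (control chow, imiquimod cream) and CD-vehicle (control chow, vehicle). The abdomen of every mouse was shaved, imiquimod was given as 62.5 mg of a 5% cream (Aldara) each day for 5 days, and skin was taken 24 h later. The length of the feeding is not given in the labels. Imiquimod activates Toll-like receptor 7 and is widely used in mice as a model of psoriasis-like inflammation. As the tissue was whole skin, fewer hair-forming cells and less RNA per hair-forming cell cannot be told apart in any value below.

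Hair, or trichocyte, keratins are made as matrix cells at the base of a growing follicle move up and harden into the shaft. An acidic type I keratin (here Krt31 to Krt35) pairs with a basic type II keratin (here Krt81, Krt82 and Krt86), and keratin-associated proteins then cross-link the filaments. The genes are switched on one after another along the shaft and are active during anagen, the growth phase of the hair cycle, while a resting follicle makes little of them. In human hair, KRT35 starts in the matrix and early cuticle, KRT32 and KRT82 belong to the cuticle, and KRT31, KRT33A, KRT33B, KRT34, KRT81 and KRT86 to the cortex.

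In the RefSeq annotation Krt33a, Krt33b, Krt34, Krt31, Krt32 and Krt35 follow each other on chromosome 11, and Krt81 and Krt86 are neighbours on chromosome 15, where Krt82 lies apart between Krt84 and Krt90. Promoter sequences were at hand for 5 members, Krt31, Krt32, Krt33b, Krt34 and Krt82. These genes had their highest group mean in 1 group, HFD-vehicle, though for some of them largely through 1 mouse. For this reason 4 promoters are shown, each as the 250 bases before the gene start on the minus strand of GRCm38.p6 (RefSeq). Capitals mark TATAAA, the core promoter element that lends its name to the TATA box and was searched on the gene strand only. They also mark CTTTGAA, which the hair factor LEF1 and related proteins bind and which was searched on both strands. No matches of the motifs overlapped in the 5 promoters.
Krt31 (chr11:100050552-100050801): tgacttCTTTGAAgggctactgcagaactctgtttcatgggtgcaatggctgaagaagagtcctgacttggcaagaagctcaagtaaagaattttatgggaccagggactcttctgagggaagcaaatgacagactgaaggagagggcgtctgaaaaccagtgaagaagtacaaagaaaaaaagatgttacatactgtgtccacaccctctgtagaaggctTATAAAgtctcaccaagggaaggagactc
Krt34 (chr11:100041555-100041804): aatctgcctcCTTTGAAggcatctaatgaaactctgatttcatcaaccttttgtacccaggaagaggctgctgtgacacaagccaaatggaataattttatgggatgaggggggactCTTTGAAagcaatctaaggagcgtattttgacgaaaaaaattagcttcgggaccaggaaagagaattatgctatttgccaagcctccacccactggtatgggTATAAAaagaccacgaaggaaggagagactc
Krt32 (chr11:100088270-100088519): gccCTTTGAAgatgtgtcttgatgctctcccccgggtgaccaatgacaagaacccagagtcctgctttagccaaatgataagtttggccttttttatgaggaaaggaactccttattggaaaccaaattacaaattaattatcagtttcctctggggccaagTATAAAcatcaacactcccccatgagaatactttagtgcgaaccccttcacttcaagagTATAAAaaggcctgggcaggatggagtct
Krt82 (chr15:101550660-101550909): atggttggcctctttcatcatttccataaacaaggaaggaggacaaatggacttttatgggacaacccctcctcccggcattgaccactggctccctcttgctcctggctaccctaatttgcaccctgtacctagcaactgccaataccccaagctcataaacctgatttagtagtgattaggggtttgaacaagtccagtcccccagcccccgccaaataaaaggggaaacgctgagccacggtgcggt

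TATAAA was present in 4 of 5 member promoters, against 8.12% of all 27025 promoters of the same length, and began 29 bases before the start in Krt31, 31 in Krt34, 29 and 88 in Krt32 and 47 in Krt33b. CTTTGAA was present in the same 4 genes, against 4.64% of all promoters. It began 244 bases before the start in Krt31, 247 in Krt32 and in Krt33b, and 240 and 133 in Krt34, so each of the 4 type I promoters carried one near the far end of the window. CGTAAA, a core preferred by HOX13 group factors such as HOXC13, was in 0 of 5, against 2.73% of all promoters. None of the 3 motifs was found in the Krt82 window. The 4 genes with matches follow each other on chromosome 11 and may not be independent cases, and no enrichment was tested. A match in these letters is a description and not a binding site.

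The deposited values are log2 values, and only differences are compared between genes, since the levels of different features are not on a common scale. Array medians lay between 2.86 and 3.04, so values near 3 are close to background, and a difference from such a level is uncertain in size. Over all genes, HFD-vehicle 3 stood apart: it held 42.8% of the squared distances of the 5 HFD-vehicle arrays from their mean. It had the highest value of all 20 arrays for 9 of 9 members, against 10.9% of all genes, so the member and list counts in comparisons are also given without it. Group means ± SD are over 5 mice, and a log2 difference is followed by its standard error from limma.

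Krt35 was the member with the clearest group pattern. Its log2 values were 3.70, 3.41, 3.50, 4.14 and 3.11 in HFD-IMQ mice 1 to 5, against 7.01, 6.49, 8.34, 5.84 and 5.51 in HFD-vehicle mice. They were 3.54, 3.80, 3.61, 3.25 and 2.90 in CD-IMQ mice, against 5.03, 4.97, 3.39, 4.12 and 4.17 in CD-vehicle mice. All 5 HFD-vehicle mice lay above the 15 other mice, and CD-vehicle mice spanned both the IMQ range and values above it. The means were 3.57 ± 0.38 in HFD-IMQ, 6.64 ± 1.12 in HFD-vehicle, 3.42 ± 0.35 in CD-IMQ and 4.34 ± 0.68 in CD-vehicle.

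Krt32, whose human counterpart is a type I keratin of the cuticle, was also highest in HFD-vehicle, with smaller differences. It read 3.74, 3.13, 3.81, 3.01 and 3.61 in HFD-IMQ, against 5.91, 4.54, 7.15, 4.67 and 4.64 in HFD-vehicle. In chow-fed mice it read 3.44, 3.54, 3.17, 4.27 and 3.48 after IMQ, against 3.70, 3.99, 3.78, 4.39 and 4.09 after vehicle. The HFD-vehicle values again lay above those of the other 15 mice, while the other 3 groups overlapped. Krt82, a type II keratin of the human cuticle, gave 3.64, 3.19, 3.15, 3.35 and 3.60 in HFD-IMQ, against 5.31, 4.14, 6.50, 4.18 and 4.46 in HFD-vehicle. Its chow-fed values were 3.26, 3.96, 3.38, 2.97 and 3.78 with IMQ, against 3.62, 3.89, 3.53, 3.64 and 3.31 with vehicle. Every HFD-vehicle mouse was above every other mouse for Krt82 as well.

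Krt33a, a cortex keratin, was the fourth member with this separation. The share of all genes with this separation was not counted. That share cannot exceed 1.64%, the share with every HFD-vehicle mouse above every CD-vehicle mouse. Krt33a measured 4.11, 3.79, 3.72, 4.04 and 3.90 in HFD-IMQ, against 6.36, 5.26, 9.75, 5.05 and 4.71 in HFD-vehicle. With chow it measured 4.04, 4.03, 3.73, 3.59 and 3.72 in IMQ-treated skin, against 3.95, 3.98, 3.97, 3.93 and 4.27 in vehicle-treated skin. The 3 groups other than HFD-vehicle lay within a narrow band, with SDs of 0.16 in HFD-IMQ, 0.20 in CD-IMQ and 0.14 in CD-vehicle, whereas the SD in HFD-vehicle was 2.06.

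In the other 5 cortex keratins HFD-vehicle 3 was far above its group, as it was for Krt33a, but the separation of the group was missing. For Krt31 the HFD-vehicle values were 3.61, 3.52, 7.92, 2.64 and 2.40, and those of Krt86 were 4.61, 2.98, 8.77, 3.13 and 3.10. For Krt33b they were 4.76, 3.32, 8.45, 3.15 and 3.53, and for Krt34 3.78, 3.79, 8.71, 4.37 and 3.68. Krt81, whose human counterpart is mutated in the brittle-hair disorder monilethrix, had 5.76, 5.30, 9.77, 5.29 and 4.93. In each of these 5 genes 1 or more HFD-vehicle mice overlapped with the other groups: 3 of 5 HFD-vehicle mice exceeded all 15 other mice for Krt31, and 2 of 5 did so for Krt33b, Krt34, Krt81 and Krt86.

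In the remaining groups these 5 keratins stayed low and overlapped. Krt31 was 2.15, 1.83, 2.47, 2.46 and 2.76 in HFD-IMQ, 2.21, 1.81, 2.71, 2.16 and 2.19 in CD-IMQ, and 2.14, 1.82, 2.68, 2.83 and 1.93 in CD-vehicle. Krt86 was 3.21, 2.65, 2.64, 2.83 and 3.02 in HFD-IMQ, 2.38, 2.74, 2.37, 3.07 and 2.89 in CD-IMQ, and 3.13, 2.75, 2.58, 2.77 and 2.88 in CD-vehicle. Both genes had means at or below the highest array median in these 3 groups and were therefore not distinguishable from background there. Krt33b ranged from 2.75 to 3.33 in HFD-IMQ, from 2.80 to 3.63 in CD-IMQ and from 3.04 to 3.77 in CD-vehicle. Krt34 ranged from 3.19 to 3.94 in HFD-IMQ, from 3.03 to 3.59 in CD-IMQ and from 3.36 to 3.54 in CD-vehicle. Krt81 ranged from 4.61 to 5.06 in HFD-IMQ, from 4.57 to 5.46 in CD-IMQ and from 4.48 to 5.16 in CD-vehicle. Krt31, Krt33a, Krt33b and Krt34 are close relatives in sequence, as are Krt81, Krt83, Krt86 and Krt87, and whether their features share signal was not tested.

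**Figure D1:**
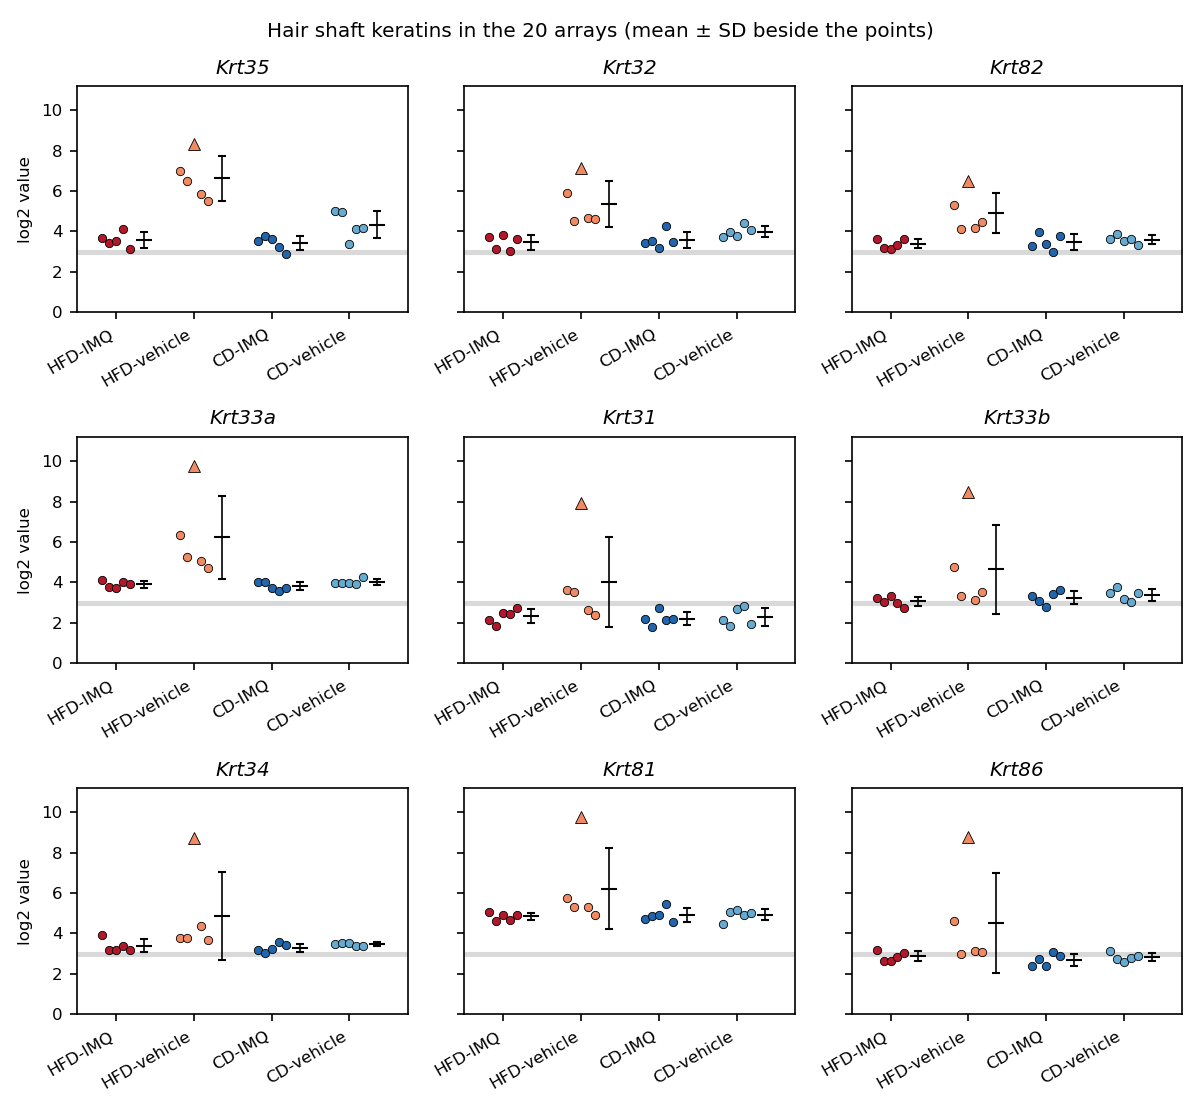
Log2 value of each measured hair shaft keratin in each of the 20 mice, with HFD-IMQ left of HFD-vehicle and CD-IMQ left of CD-vehicle. Points are mice (the triangle is HFD-vehicle 3), the bar beside them is the mean ± SD, and the grey band spans the array medians, 2.86 to 3.04. For Krt35, Krt32, Krt82 and Krt33a all 5 HFD-vehicle points lie above the other 15. In the panel of Krt33a and in the other 5 panels the triangle stands far above its group.

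The order of the group means was headed by HFD-vehicle for 9 of 9 members. CD-vehicle was second for 7 of 9, and for Krt31 and Krt86 HFD-IMQ was second. HFD-IMQ and CD-IMQ shared the lower places, with CD-IMQ lowest for 5 members and HFD-IMQ lowest for 4. Below HFD-vehicle, the ranges of neighbours in this order overlapped for every member. Averaged over the 9 members, the log2 value was 3.42 ± 0.15 in HFD-IMQ, 5.27 ± 1.79 in HFD-vehicle, 3.40 ± 0.08 in CD-IMQ and 3.65 ± 0.08 in CD-vehicle (SD, n = 5 each).

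Imiquimod under high fat diet was compared first. Krt35, Krt33a, Krt32 and Krt82 fell in HFD-IMQ relative to HFD-vehicle, 4 of 9 members, while 2.24% of all genes were called lower in this comparison. Krt35 fell by 3.07 ± 0.38 on the log2 scale (8.38-fold, limma adjusted p = 1.45e-05), the largest member difference in this comparison. Krt33a fell by 2.32 ± 0.56 (4.99-fold, limma adjusted p = 0.0128), Krt32 by 1.92 ± 0.35 (3.78-fold, adjusted p = 0.00125) and Krt82 by 1.53 ± 0.31 (2.89-fold, adjusted p = 0.0028). For these same 4 genes every HFD-IMQ mouse was below every HFD-vehicle mouse, a separation seen downward in 2.39% of all genes. The other 5 members had log2 differences between -1.68 (Krt31) and -1.37 (Krt81) with limma adjusted p between 0.142 and 0.193, and were not called. The median difference over the 9 members was -1.65, against -0.00067 over all genes.

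Leaving out HFD-vehicle 3 shrank these differences and also their errors. The same 4 members were called lower, against 2.07% of all genes: Krt35 fell by 2.64 ± 0.31 (limma adjusted p = 5.77e-06), Krt32 by 1.48 ± 0.25, Krt33a by 1.44 ± 0.21 and Krt82 by 1.14 ± 0.21. The other 5 members then had differences between -0.71 and -0.48, Krt34 being nearest to the threshold at -0.52 ± 0.16 (limma adjusted p = 0.0617). The median member difference without that mouse was -0.71.

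High fat diet without imiquimod gave the mirror comparison, and it shares the HFD-vehicle mice with the one above. Krt35, Krt33a, Krt82 and Krt32 rose in HFD-vehicle relative to CD-vehicle, 4 of 9 members, while 1.22% of all genes were called higher. Krt35 was higher by 2.30 ± 0.38 on the log2 scale (4.93-fold, limma adjusted p = 0.00191). Krt33a was higher by 2.21 ± 0.56 (4.62-fold, limma adjusted p = 0.0405), Krt32 by 1.39 ± 0.35 (2.62-fold, adjusted p = 0.0403) and Krt82 by 1.32 ± 0.31 (2.5-fold, adjusted p = 0.0252). The groups did not overlap for these 4 genes and Krt34, 5 of 9 members against 1.64% of all genes. Krt31, Krt33b, Krt34, Krt81 and Krt86 had differences between 1.25 and 1.74 with limma adjusted p between 0.17 and 0.351. The median over the members was 1.40, against -0.008 over all genes.

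In this comparison the call depended on single mice and on the spread pooled over the 4 groups. HFD-vehicle held between 63.0% (Krt35) and 98.0% (Krt33a) of each member's squared deviation within groups. With only the compared groups fitted, the differences were the same, but Krt33a, Krt32 and Krt82 were not called (limma adjusted p = 0.18, 0.141 and 0.118). Without HFD-vehicle 3, 3 of 9 members were called higher, against 0.843% of all genes: Krt35 by 1.88 ± 0.31 (limma adjusted p = 0.00132), Krt33a by 1.33 ± 0.21 (adjusted p = 0.00098) and Krt82 by 0.93 ± 0.21 (adjusted p = 0.0259). Krt32, at 0.95 ± 0.25, was then not called (limma adjusted p = 0.0656), and the member median was 0.76. Leaving out CD-vehicle 1, CD-vehicle 2, CD-IMQ 1 or CD-IMQ 5 left 2 called members, and leaving out HFD-vehicle 1, CD-vehicle 3 or CD-vehicle 5 left Krt35 alone. Krt35 was called in 28 of 28 alternative fits, Krt82 in 24, Krt32 in 16 and Krt33a in 12.

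**Figure D2:**
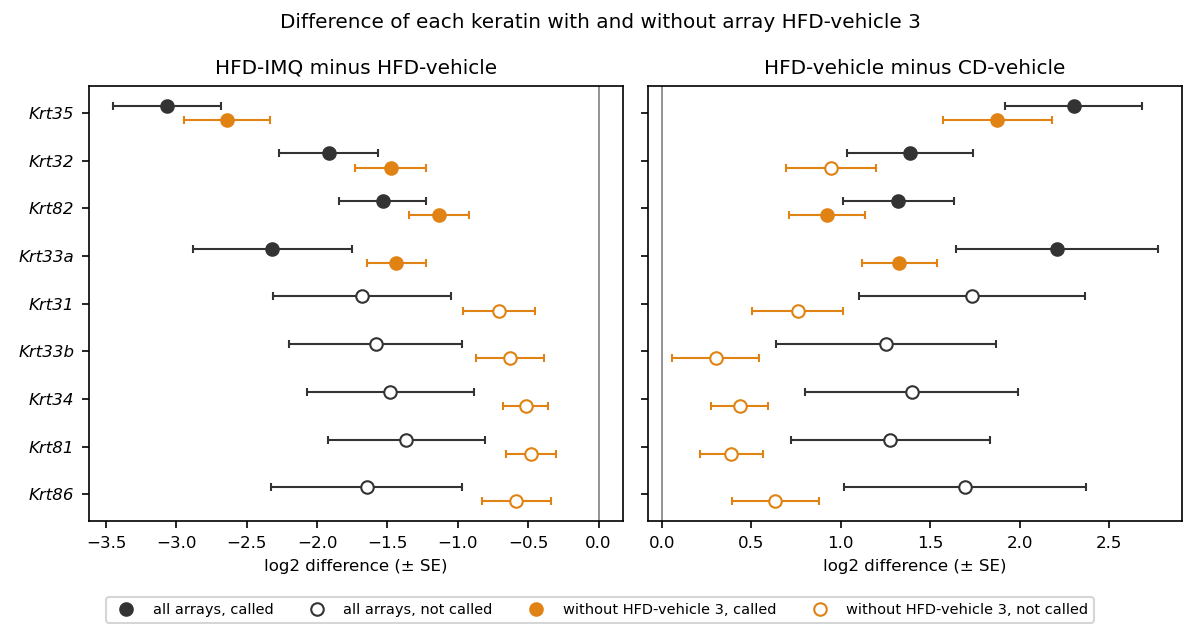
Log2 difference ± SE of each member for HFD-IMQ minus HFD-vehicle (left) and HFD-vehicle minus CD-vehicle (right), with all arrays in black and without HFD-vehicle 3 in orange. Filled points have a limma adjusted p below 0.05. Krt35, Krt32, Krt82 and Krt33a keep the larger differences without that array, and the 5 lower rows shrink to between -0.71 and -0.48 on the left and between 0.30 and 0.76 on the right.

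The members thus differed in how the high vehicle-treated values were spread over the high fat diet mice. HFD-vehicle 3 exceeded the mean of the other 4 HFD-vehicle mice by 5.32 log2 units for Krt86, 4.88 for Krt31, 4.81 for Krt34, 4.76 for Krt33b, 4.45 for Krt81 and 4.41 for Krt33a. These 6 members were over 4 log2 units higher in that mouse, as were 48 of 22180 genes (0.216%). For Krt32, Krt35 and Krt82, the 3 members known from the matrix or cuticle of human hair, the excess was 2.21, 2.13 and 1.98. The other 4 HFD-vehicle mice exceeded the CD-vehicle mean by 1.88 log2 units for Krt35, 1.33 for Krt33a, 0.95 for Krt32 and 0.93 for Krt82, and by 0.30 to 0.76 for the rest. All 4 of these mice were above the highest CD-vehicle mouse for Krt32, Krt33a, Krt34, Krt35 and Krt82, 5 of 9 members against 2.3% of all genes. HFD-vehicle 1 was second to HFD-vehicle 3 within the group for 8 of 9 members, the exception being Krt34, for which HFD-vehicle 4 was second. Between 58.4% (Krt35) and 78.7% (Krt34) of each member's squared deviation within HFD-vehicle came from mouse 3.

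Values of other cell types moved with HFD-vehicle 3. Adipocyte genes were lower in it than in the other 4 HFD-vehicle mice for 6 of 6 genes (by 0.47 to 0.91 log2 units). Fibroblast genes were lower for 5 of 5 (-0.74 to -0.30). Skeletal muscle genes were below 0 for 6 of 6 (-0.81 to -0.009), but Tnnt3 (-0.009) and Acta1 (-0.12) hardly differed. The median of this difference over all genes was -0.019. Melanocyte pigment genes were higher in it for 8 of 8 (by 0.32 to 1.96). The 4 wound keratins, which are induced in injured or inflamed epidermis, went both ways in that mouse: Krt6a exceeded the other 4 by 2.19 log2 units and Krt17 by 1.96, while the differences were -1.28 for Krt16 and -2.60 for Krt6b. Of the interfollicular epidermis genes, Krt1 (-1.47), Flg (-1.30), Lor (-0.68) and Krt10 (-0.67) were lower in it, and Trp63 (0.98) and Krt14 (0.73) were higher. Their part in the keratin values was not tested.

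Imiquimod under control chow had no called member: 0 of 9 passed, by limma, while 10.9% of all genes were called and 7.02% were called lower. At an unadjusted p below 0.05 there was 1 of 9 (Krt35), against 23.6% of all genes. Krt35 differed by -0.92 ± 0.38 on the log2 scale between CD-IMQ and CD-vehicle (limma adjusted p = 0.139), and the other 8 by -0.41 (Krt32) to -0.02 (Krt81). All 9 differences were below 0 and the groups overlapped for 9 of 9, whereas 5.1% of all genes were separated downward. The standard errors are pooled over the 4 groups, so the spread of HFD-vehicle 3 entered them. Without that mouse the error of Krt35 was 0.29 and Krt35 was called lower in CD-IMQ (limma adjusted p = 0.0405), 1 of 9 members against 7.48% of all genes. CD-vehicle 3, the lowest CD-vehicle mouse for Krt35 at 3.39, was also the lowest for the mean of the inner root sheath genes (2.84, with the other CD-vehicle mice at 4.26 to 5.56). This was not particular to the sheath. The same mouse was lowest for interfollicular epidermis genes (7.55, the others at 8.25 to 8.57) and for skeletal muscle genes (7.76). It was not lowest for wound keratins or adipocyte genes.

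The diet made no detectable difference to these keratins in imiquimod-treated skin. HFD-IMQ minus CD-IMQ lay between -0.20 (Krt33b) and 0.18 (Krt86), 5 positive and 4 negative, with limma adjusted p between 0.928 and 0.982. None of the 9 was called or below an unadjusted p of 0.05, and 0% of all genes were called by limma in this comparison, of which 2289 were below an unadjusted p of 0.05. The standard errors, which limit how small a difference could be seen, were 0.31 to 0.68 with all arrays. They were 0.15 to 0.29 without HFD-vehicle 3, a mouse outside this comparison that entered the pooled spread. Without it the 9 were likewise not called (limma adjusted p between 0.792 and 0.921). Signal near background was a further limit. Krt31 and Krt86 were not distinguishable from background in either IMQ group, and Krt33b had means of 3.06 in HFD-IMQ and 3.26 in CD-IMQ.

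The interaction, which is the imiquimod effect under high fat diet minus that under chow, was below 0 for all 9 members. It was not called for any of them by limma (0 of 9, against 0.663% of all genes), although 4 of 9 were below an unadjusted p of 0.05, against 15.9% of all genes. Krt35 had -2.15 ± 0.54 (limma adjusted p = 0.0667), Krt33a -2.12 ± 0.80, Krt32 -1.51 ± 0.50 and Krt82 -1.40 ± 0.44, and the other 5 lay between -1.62 and -1.30. Without HFD-vehicle 3, Krt33a was called at -1.24 ± 0.29 (limma adjusted p = 0.0481), 1 of 9 against 0.32% of all genes called lower. Without CD-vehicle 2, HFD-vehicle 4 or HFD-vehicle 5, Krt35 was the 1 called member, at -2.31, -2.35 and -2.43.

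Genes that act beside these keratins in the follicle were counted from lists. Of 19 keratin-associated and other shaft genes, 7 rose in HFD-vehicle relative to CD-vehicle and 0 fell. Krtap4-2, a keratin-associated protein, was higher by 4.18 ± 0.74 on the log2 scale, Prr9 by 3.93 ± 0.54, Tchhl1 by 3.45 ± 0.59 and S100a3, a calcium-binding protein of the cuticle, by 2.85 ± 0.42 (limma adjusted p between 0.000275 and 0.00349). Under HFD, 7 of the 19 fell with IMQ, among them Krtap4-2 (-4.76), Prr9 (-4.58), S100a3 (-4.14) and Dsg4, the desmosomal cadherin of the shaft (-3.64). Tgm3, a transglutaminase also made in epidermis, rose by 1.36. Without HFD-vehicle 3, 10 of the 19 fell and Tgm3 rose. Tgm3 was also the 1 of 19 called in CD-IMQ against CD-vehicle, higher by 2.27 ± 0.30, and without HFD-vehicle 3 S100a3 (-1.15) was called there too. The median of the 19 was 1.96 for HFD-vehicle minus CD-vehicle and 0.90 without HFD-vehicle 3, with 10 called higher in that fit.

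The other 6 trichocyte keratins (Krt36, Krt39, Krt40, Krt83, Krt84 and Krt87) were all highest of the 20 arrays in HFD-vehicle 3. Krt83 and Krt87 exceeded the other 4 by 4.99 and 4.82 log2 units, as far as the cortex members did. Krt36, Krt39, Krt40 and Krt84 exceeded them by less, 1.76 (Krt40) to 3.01 (Krt84). None was called in HFD-vehicle against CD-vehicle by limma with all arrays, though 4 of 6 were below an unadjusted p of 0.05 (14.7% of all genes), and Krt83 (0.67) and Krt87 (1.10) were called without HFD-vehicle 3. Krt87 (-2.10 ± 0.62) and Krt40 (-0.84 ± 0.25) fell in HFD-IMQ against HFD-vehicle, and without HFD-vehicle 3 these 2 and Krt83 (-0.59) did.

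The inner root sheath, the sleeve that moulds the shaft, changed in the same comparisons. In HFD-vehicle, 8 of 9 of its genes rose relative to CD-vehicle, led by Krt71 (4.34 ± 0.75), Krt27 (3.94 ± 0.53), Tchh, encoding trichohyalin (3.89 ± 0.84), and Krt72 (3.85 ± 0.53). With IMQ under HFD, 8 of 9 fell, among them Tchh (-6.93 ± 0.84) and Krt71 (-6.79 ± 0.75). Both counts were 8 of 9 without HFD-vehicle 3 as well. With IMQ under chow, 5 of 9 fell, among them Tchh (-3.31), Krt71 (-2.69), Krt25 (-2.28) and Krt73 (-2.08), and 6 of 9 fell without HFD-vehicle 3. The interaction was called for 6 of 9 sheath genes, between -3.99 (Krt72) and -3.05 (Krt73), and for 3 shaft genes (Prr9, S100a3 and Dsg4). Without HFD-vehicle 3 it was called for 6 sheath genes and for 6 shaft genes, Crym, Padi3 and Tchhl1 being the further ones. The excess of the other 4 HFD-vehicle mice over CD-vehicle had a median of 3.05 log2 units over the sheath genes and 0.76 over the 9 keratins. The further excess of HFD-vehicle 3 had a median of 2.24 over the sheath genes and 4.45 over the keratins, and it was the larger of the 2 differences for 4 of 9 sheath genes and 9 of 9 keratins. No test of any difference between the lists was made.

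**Figure D3:**
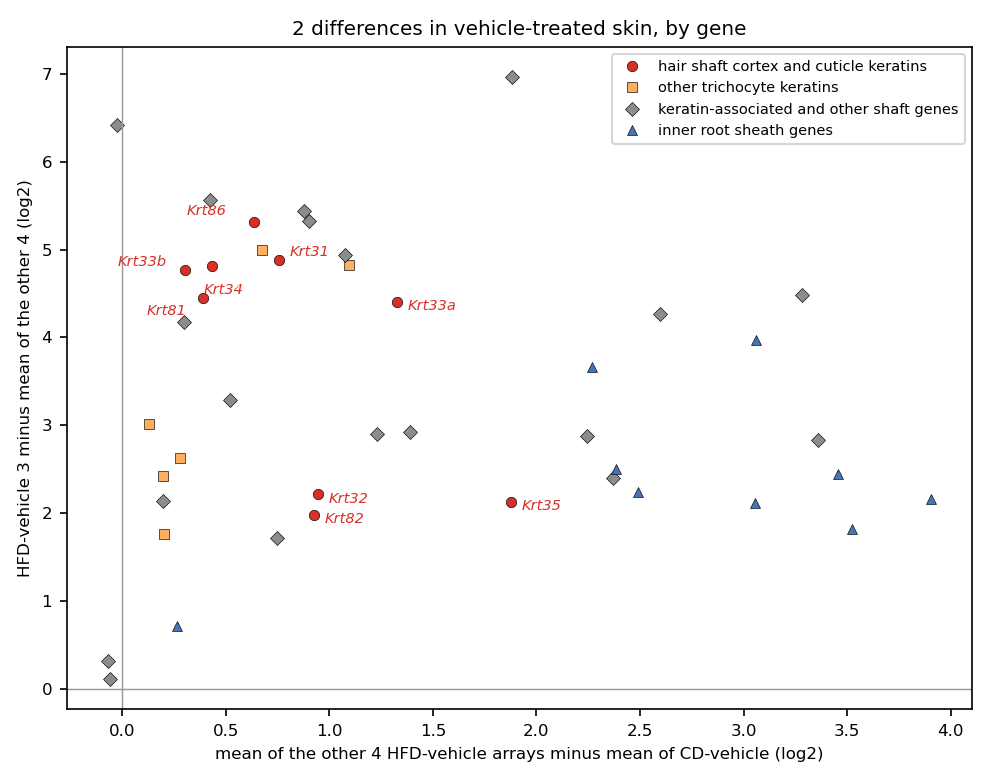
Each point is a gene. The x axis is the mean of the other 4 HFD-vehicle mice minus the CD-vehicle mean, and the y axis is HFD-vehicle 3 minus the mean of the other 4, both in log2 units. Inner root sheath genes other than Krt74 lie to the right (list medians 3.05 and 2.24), the cortex keratins lie at the upper left with over 4 log2 units on the y axis, and Krt35, Krt32 and Krt82 lie lower, near 2.

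Transcription factors of the shaft rose with the keratins: 6 of 9 were higher in HFD-vehicle than in CD-vehicle. Vdr, the vitamin D receptor, was higher by 1.30 ± 0.24, Dlx3 by 1.26 ± 0.29, Lef1 by 1.09 ± 0.27 and Msx2 by 1.07 ± 0.25 (limma adjusted p between 0.00477 and 0.0361), and 4 of 9 were called without HFD-vehicle 3. In HFD-IMQ against HFD-vehicle 6 of 9 fell, with and without HFD-vehicle 3, among them Dlx3 (-1.70) and Lef1 (-1.46). Signals of the hair matrix and of anagen gave 0 calls of 12 by limma in HFD-vehicle against CD-vehicle, with differences between -0.18 and 0.60. At an unadjusted p below 0.05 there were 2 of 12, against 14.7% of all genes. Some of the 12 lay below the array medians in CD-vehicle, such as Shh (mean 2.46) and Fgf5 (1.91), so a missing call says little there. Others, such as Bmp4 (5.48), lay well above. In HFD-IMQ against HFD-vehicle 5 of these 12 fell, among them Bmp4 (-1.06), Ptch1 (-0.88), Wnt5a (-0.68) and Fgf5 (-0.55), and 2 of 12 were called without HFD-vehicle 3. In CD-IMQ against CD-vehicle 2 of 12 fell and 0 rose, with and without HFD-vehicle 3, while 7.02% of all genes were called lower. The lowest of the 12 differences there was -1.12.

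Of 10 follicle stem cell and companion layer genes, Krt75, a companion layer keratin, was the 1 called in HFD-vehicle against CD-vehicle (2.63 ± 0.47), with and without HFD-vehicle 3. In HFD-IMQ against HFD-vehicle 7 of the 10 fell and 1 rose, and 6 fell and 1 rose without that mouse. In CD-IMQ against CD-vehicle 3 of the 10 fell and 0 rose, with and without that mouse. Pigment genes of melanocytes, which colour the growing shaft, rose in 3 of 8 cases in HFD-vehicle (Tyrp1 by 1.93, Dct by 1.52 and Pmel by 1.18) and fell in 5 of 8 in HFD-IMQ against HFD-vehicle. Without HFD-vehicle 3 these counts were 2 of 8 (Tyrp1 and Pmel) and 4 of 8. Of the interfollicular epidermis genes, 3 of 6 (Krt1, Krt14 and Flg) also rose in HFD-vehicle relative to CD-vehicle. So did 4 of 4 wound keratins, Krt16 by 3.09 ± 0.42 and Krt6a by 2.65 ± 0.39. Without HFD-vehicle 3 it was 2 of 6 (Krt1 and Flg) and 4 of 4. Krt6a, Krt6b and Krt16 rose in HFD-IMQ against HFD-vehicle, with and without that mouse. Krt17, by contrast, had its highest group mean in HFD-vehicle, with 7.53 ± 0.30 in HFD-IMQ, 8.19 ± 0.91 in HFD-vehicle (7.80 without HFD-vehicle 3), 7.48 ± 0.30 in CD-IMQ and 6.43 ± 0.80 in CD-vehicle. Adipocyte, fibroblast and skeletal muscle genes gave 0 calls in HFD-vehicle against CD-vehicle by limma. At an unadjusted p below 0.05 there were 0 of 6, 0 of 5 and 2 of 6, against 14.7% of all genes. Neutrophil genes gave 2 of 5 calls there, S100a8 by 1.64 and S100a9 by 1.14, and 4 of 5 in each IMQ comparison, all higher. The adipocyte, fibroblast, skeletal muscle and neutrophil counts were the same without HFD-vehicle 3. Their part in the keratin differences was not tested.

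**Figure D4:**
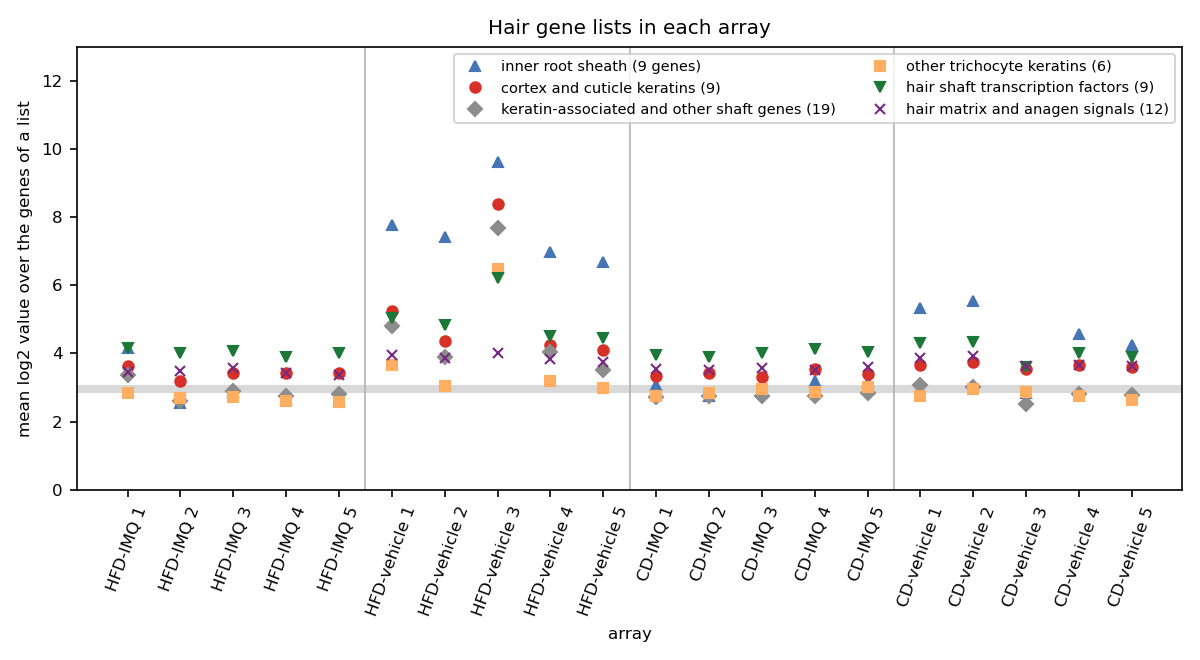
Mean log2 value over the genes of each hair list (y axis) in each of the 20 mice (x axis), HFD groups left of CD groups and IMQ left of vehicle. The grey band spans the array medians. The keratins lie between 3.20 and 3.75 in the 15 mice outside HFD-vehicle and reach 8.38 in HFD-vehicle 3, and inner root sheath genes are above 6.7 in all 5 HFD-vehicle mice.

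How closely the members followed each other depended on HFD-vehicle. Over the 20 arrays the median Pearson correlation of the 36 member pairs was 0.888 (0.708 to 0.971), and the median Spearman correlation was 0.508. Without HFD-vehicle 3 the median Pearson correlation was 0.617, and over the 15 arrays of the other 3 groups it was 0.122 (-0.570 to 0.613). The points share 1 normalisation and include 1 outlying array.

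Genes most like the member mean were sought among 19386 genes outside the set, leaving out predicted genes. Over 20 arrays the 10 highest Pearson correlations belonged to Krtap4-6 (0.986, Spearman 0.774), Krtap1-4, Krtap28-13, Car6, Krtap4-16, Krtap8-1, Krtap4-8, Krtap9-3, Krtap11-1 and Krtap1-3 (0.971). Of the 10, 9 are keratin-associated proteins. Over the 19 arrays without HFD-vehicle 3 the 10 were Krtap24-1 (0.958, Spearman 0.791), Crnn, Calhm4, S100a3, Lyg2, Krt26, Dsg4, Krt75, Krt72 and Dlx3 (0.930), with 0 genes shared between the rankings. The 10 from the ranking over 20 arrays stood between places 14 (Krtap4-6) and 65 (Krtap1-3) of the ranking over 19, with Pearson correlations of 0.815 (Krtap1-3) to 0.919 (Krtap4-6). The 10 over 19 arrays held 2 inner root sheath keratins, Krt26 and Krt72. The lowest Spearman correlations were 0.495 (Krtap9-3) in the ranking over 20 and 0.481 (Lyg2) in that over 19. HFD-vehicle 1 was the second farthest array from the median of the member mean. Without it as well, Pearson correlations were 0.556 (Krtap1-3) to 0.846 (Krtap1-4) for the former 10. For the latter 10 they were 0.867 (Lyg2) to 0.973 (S100a3).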

How the data were processed

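Abdominal skin RNA of 20 mice was labelled (WT PLUS kit) for Affymetrix arrays, per the labels' protocols. The authors deposited log2 values from RMA (affy package), per the submitters' processing notes, with versions and genome build not given in the sources used here. Of 41345 features 23521 carried exactly 1 gene symbol, and the feature with the highest mean over 20 arrays represented each of 22180 genes, with no filter on dim genes. Group means were fitted over all arrays with limma 3.58.1 in R 4.3.3 (lmFit, eBayes), 5 contrasts were tested, and the threshold for a call was 0.05 for the p adjusted over all genes after Benjamini and Hochberg. The labels call the mice biological replicates, and the number of arrays limits the precision. Tested on simulated data, the fit recovered 48%, 90% and 100% of changes of log2 0.5, 1 and 2 in HFD-vehicle against CD-vehicle. That is over all genes, whose median standard error was 0.136, against 0.563 for the members, so recovery at the members' spread was not measured. Likeness was ranked by Pearson correlation with the member mean. Named genes were all members, up to 4 called genes of each list with the largest differences and the 10 most like, and further list members in the text were chosen after their values were seen. Members and lists were chosen with earlier results of these data known. Alternatives were other normalisation, weights, eBayes settings, dim-gene filter, feature averaging, fewer groups, a replicate block and leaving out each array. Krt5, Krtap3-2, Krtap3-3, Krtap15 and Msx1 were also not analysed here. Promoters were read from RefSeq (GRCm38.p6). Python 3.11.15 with pandas 2.3.3 and matplotlib 3.10.9 made tables and figures.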

Additional observations from a re-analysis of the deposited data

Results flagged for a closer look

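In 6 of 36 sets of a member and a group, 1 array's gap to its nearest neighbour took up more than 0.71 of the group's range, where chance gives about 1 set in 20. HFD-vehicle 3 was that array in 4 of them: the gap was 0.781 of the range for Krt31, 0.863 for Krt34, 0.828 for Krt81 and 0.719 for Krt86. The array read 7.92, 8.71, 9.77 and 8.77 for these genes. Krt34 in HFD-IMQ 1 (3.94) had a gap of 0.746. Krt33a in CD-vehicle 5 (4.27) had a gap of 0.871 in a group whose SD was 0.14. No difference between the diets in the imiquimod effect was called for a member.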

How the results depend on the processing

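The count of called members in HFD-IMQ against HFD-vehicle was 4 when each array was left out in turn. In HFD-vehicle against CD-vehicle it was 4 with all arrays, 2 with trend and robust eBayes, 1 with only the groups compared, 2 with a replicate block and 1 to 4 with 1 array left out. In CD-IMQ against CD-vehicle it was 0, 1 with only the groups compared (Krt35, limma adjusted p = 0.0427) and 0 to 1 with 1 array left out. It was 0 for HFD-IMQ against CD-IMQ under each alternative run. For the interaction it was 0, 1 with dim genes left out (Krt35, limma adjusted p = 0.0492) and 0 to 1 with 1 array left out. Krt33a in HFD-IMQ against HFD-vehicle was not called with only the groups compared (limma adjusted p = 0.0953). Its difference was the same, -2.32, but its standard error was 0.72, against 0.56 in the reported fit. Of its squared deviation within groups, 98.0% lay in HFD-vehicle. Replicate numbers did not pair the arrays: 4 of 30 same-number pairs had residuals correlated above 0.1 (-0.217 to 0.320). Signs turned only for uncalled differences. Krt81 in CD-IMQ against CD-vehicle was 0.042 after another quantile normalization, and with 1 array left out Krt31 ranged from -0.19 to 0.0701 and Krt81 from -0.16 to 0.0589. In HFD-IMQ against CD-IMQ, Krt32 ranged from -0.22 to 0.0552, Krt34 from -0.0405 to 0.17, Krt81 from -0.15 to 0.0733 and Krt82 from -0.21 to 0.0407. Krt31 did not pass the filter on dim genes. The number of genes called over all settings ranged from 137 to 588 in HFD-vehicle against CD-vehicle (483 in the reported fit), from 57 to 204 for the interaction (147) and from 0 to 20 in HFD-IMQ against CD-IMQ (0). Signal near background limits Krt31 and Krt86 most, outside HFD-vehicle. Krt32, Krt33b, Krt34, Krt35 and Krt82 had means in the IMQ groups of 3.06 (Krt33b, HFD-IMQ) to 3.58 (Krt32, CD-IMQ). These lay little above the highest array median, 3.04, so the size of their differences is uncertain too.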
